A study of Mus musculus and Mus musculus musculus x Mus musculus castaneus with 52 samples.

Results

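The 49 genes described here lie on mouse chromosome 8 and code for repair, cell-cycle, chromatin, signalling, folding, translation and transport proteins. They were taken from a list of chromosome 8 genes, and a gene counted as a member where its mean over all 24 libraries was at least 2 on the log2 CPM scale (CPM, the reads of a gene scaled to the size of the library). All 49 of the 49 listed genes passed, of 816 chromosome 8 genes and 16687 genes in the table. The chromosome was chosen because its genes read high in the induced pluripotent stem cell (iPSC) line LV21 and in the embryonic stem cell (ESC) line V6.5. The values of these lines are therefore given as a description, with no test. The members' means ran between 3.34 (Nfix) and 9.48 (Calr) on the log2 CPM scale, and no member lay near the minimum.

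RNA sequencing was carried out on undifferentiated mouse stem cells and on cells deprived of LIF, a cytokine that keeps ESCs from differentiating. The 3 female iPSC lines (LV20, LV21 and LV22) were read at passage 13 (P13), where the study names them XO, and at passage 7 (P7), where it names them XX. The 3 male XY iPSC lines (LV4, LV8 and LV16) were read at the same passages. The XX ESC lines CM1 and CM2 and the XY ESC lines CM3 and CM7 were read at passage 5 (P5). The LIF experiment held 2 clones of female ESCs with the genotype Dusp9+/- (Dusp9 is an X-linked phosphatase of the kinase ERK), the wild-type XX line F121 and the wild-type XY line V6.5. Each of these lines was read after 24 h without LIF and at 0 h, and its cells were grown in serum without feeders. The LV and V6.5 lines are Mus musculus, whereas the CM, F121 and Dusp9+/- lines come from musculus by castaneus crosses, so V6.5 is the only line of its experiment without castaneus alleles and the only XY line in it. Each line is 1 culture at each passage or time, and each Dusp9+/- line is 1 clone, so p-values measure the spread between lines or clones.

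A gain of a chromosome gives each gene on it an extra copy, and the transcripts of most such genes rise roughly with copy number unless the gene is buffered or regulated otherwise. Mouse pluripotent cells are known to gain chromosome 8 in culture, and cells with trisomy 8 can outgrow their normal neighbours. RNA levels do not measure copy number. In bulk RNA a gain carried by some of the cells and a smaller effect in every cell cannot be told apart. Chromosome copy number was not measured in the data analysed here.

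The libraries held 8309171 to 14245900 reads. The 7 pluripotency markers were present in all 24 libraries, with summed levels of 1863 to 3639 CPM. Some libraries stood apart from their labels. The median deviation of chromosome 12 genes was 0.35 in Dusp9+/- 1 at 0 h and 0.34 in Dusp9+/- 2 at 24 h, whereas it was -0.11 in Dusp9+/- 1 at 24 h and -0.12 in Dusp9+/- 2 at 0 h, so this feature did not follow the clone numbers across time. The X-linked genes of LV21 at P7, labelled XX, deviated by a median of 0.11, below the 0.48 of LV20 and the 0.70 of LV22 at P7. The 3 XY lines at P7 lay between -0.21 and -0.11. LV22 at P13, labelled XO, stood at 0.12, above LV21 at P7 and above the -0.12 of LV20 and the -0.23 of LV21 at P13. F121, labelled XX, stood at 0.04 (24 h) and 0.02 (0 h), against 0.24 to 0.32 in the clone libraries. Xist, the RNA that silences an X chromosome, had log2 CPM values of 8.16 and 8.11 in the clones against 6.41 in F121 at 24 h, and of 7.45 and 7.86 against 4.24 at 0 h. These libraries enter the comparisons under their labels, except that LV21 is left out of the tests that name it in a group.

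To compare libraries, each member's log2 CPM was set against the mean of its own set of libraries (12 LV, 4 CM or 8 from the LIF experiment), and the median over the 49 members was taken. That median deviation was 0.46 in LV21 at P13 and 0.22 in LV21 at P7. It was 0.50 in V6.5 at 24 h and 0.32 in V6.5 at 0 h. In the other 20 libraries it lay between -0.25 and 0.07, and the 4 CM libraries lay between -0.04 and 0.02. The CM libraries were set against their own mean, so a shift shared by all 4 would not show. Because a high line raises the mean of its own set, the other lines of its set are pushed below 0 by construction. Set against the other lines at the same passage or time, the median difference was 0.49 in LV21 at P13 (1.40-fold) and 0.41 in LV21 at P7 (1.33-fold). It was 0.61 in V6.5 at 24 h (1.53-fold) and 0.54 in V6.5 at 0 h (1.45-fold). A ratio of 3 copies to 2 would be 0.58 on this scale. Against the XY iPSC lines at P7, which are also Mus musculus, the members of V6.5 differed by a median of 0.57 at 24 h and 0.56 at 0 h. That contrast sets ESCs against iPSCs of another set, so it differs in more than strain. Over autosomal genes off chromosome 8 its medians were -0.02 at 24 h and -0.01 at 0 h, with SDs of 0.84 and 0.72.

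**Figure D1:**
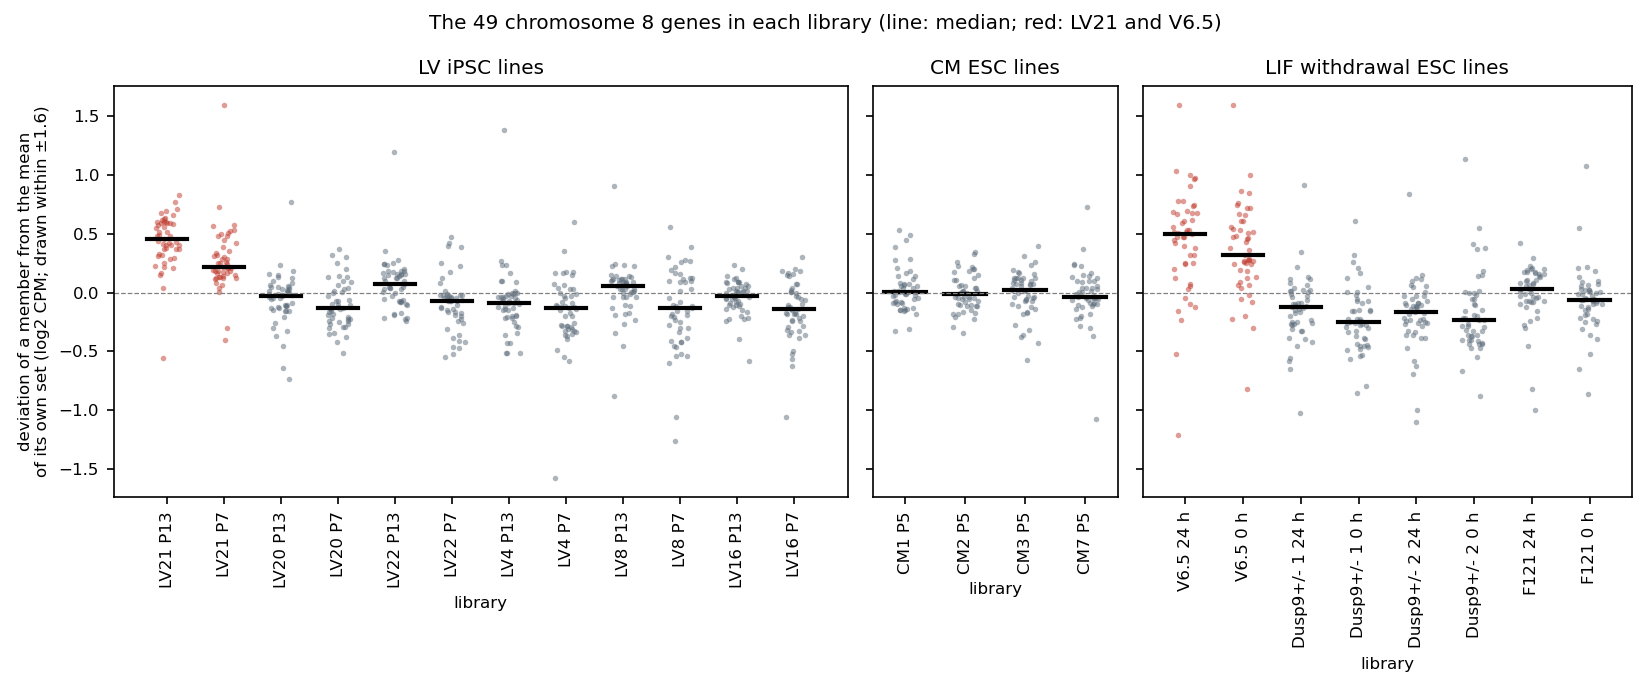
Each point is 1 of the 49 chromosome 8 genes in 1 library, as its deviation in log2 CPM from the mean of its set (vertical axis, drawn within 1.6 of 0, with 3 of 1176 points placed at the limit); black lines are medians and red marks LV21 and V6.5. The medians of the red libraries lie between 0.22 and 0.50, above all others, whose highest is 0.07.

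The members shared this shift with the rest of their chromosome. The 547 other chromosome 8 genes at the same minimum level differed from the other lines by a median of 0.48 in LV21 at P13 and 0.40 at P7, and by 0.48 in V6.5 at 24 h and 0.46 at 0 h. The 10056 autosomal genes on other chromosomes had medians of -0.01, 0.00, 0.05 and 0.05 in the same order of libraries. Over 7 windows of 20 Mb along chromosome 8, the median lay between 0.34 and 0.49 in the LV21 libraries and between 0.35 and 0.54 in the V6.5 libraries, above 0 in every window. When the 596 chromosome 8 genes were divided by mean level into 3 parts of like size, the LV21 medians were 0.36 to 0.48 and the V6.5 medians 0.37 to 0.56.

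Among the 19 autosomes, chromosome 8 had the highest median deviation in both LV21 libraries, at 0.43 (P13) and 0.29 (P7), where no other autosome exceeded 0.03. It was also the highest in both V6.5 libraries, at 0.42 (24 h) and 0.31 (0 h), where the next highest autosome reached 0.13. The chromosome was chosen on these libraries, so its rank in them is a description. In LV8 at P13 chromosome 8 again ranked first, at 0.04, and in LV22 at P13 it ranked second, at 0.05. These values are far smaller than those of LV21.

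**Figure D2:**
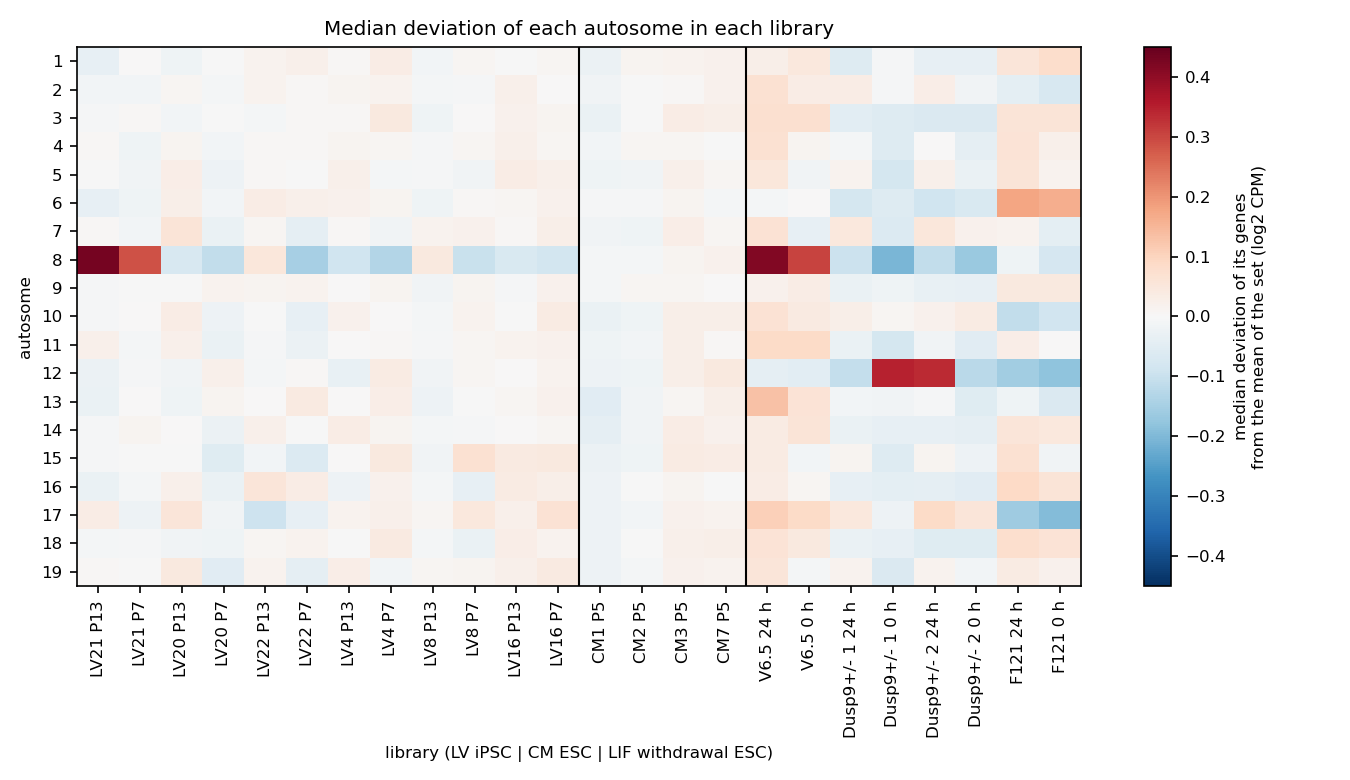
Colour gives the median deviation (log2 CPM) of the genes of each autosome (rows) in each library (columns) from the mean of the set. Chromosome 8 is high in LV21 (0.43 at P13, 0.29 at P7) and V6.5 (0.42 at 24 h, 0.31 at 0 h), and chromosome 12 is high in Dusp9+/- 1 at 0 h (0.35) and Dusp9+/- 2 at 24 h (0.34).

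How far single genes stood apart from the spread of the other lines was counted next. Both LV21 libraries lay above all 10 libraries of the other LV lines for 24 of 49 members, where 3.50% of all 11185 genes at the level did so, and below them for 0 members, where 1.34% of all genes did. Both V6.5 libraries lay above all 6 libraries of the other LIF lines for 31 of 49 members (17.8% of all genes), and below them for 1 member, Insr (13.0% of all genes). Since the chromosome was chosen on these libraries, nothing is read from these counts. The percentages of the lines are not comparable, since one rests on 10 other libraries and the other on 6. For the mean difference of the 2 libraries of a line, the SD over members was 0.55 in V6.5, against 0.15 in LV21. This wider spread was not particular to the members. Over the autosomal genes off chromosome 8 the SD was 0.60 in V6.5, against 0.24 in LV21.

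The roles of the members are given in turn, each with the gene that had the highest mean log2 CPM in its group. Counts above 0 refer to the mean difference of the 2 libraries of a line. Of the 547 other chromosome 8 genes, 96.2% were above 0 in LV21 and 82.1% in V6.5. The counts by role are therefore a description, and nothing about a role is read from them. The 3 DNA repair genes were higher in both lines. Rnaseh2a (chr8:84956610-84969598), the catalytic subunit of the ribonuclease that removes ribonucleotides from DNA, had log2 CPM values of 6.35 at P13 and 6.04 at P7 in LV21, against 5.44, 5.76 and 5.95 (lowest, median and highest) in the other LV libraries. Its V6.5 values were 6.16 at 24 h and 6.20 at 0 h, against 5.53, 5.73 and 5.86 in the other LIF libraries. The high lines and the others did not overlap for this gene. Lig4, the ligase of non-homologous end joining, differed by 0.47 in LV21 and 0.68 in V6.5, and Polb, the polymerase of base excision repair, by 0.21 and 0.74.

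Of the 5 cell-cycle and centrosome genes, all 5 were above 0 in LV21 and 4 in V6.5. Pcm1, a scaffold of the satellites around the centrosome, had log2 CPM values of 8.88 at P13 and 8.64 at P7 in LV21, against 8.29, 8.39 and 8.53 in the other LV libraries. In V6.5 it was 8.94 at 24 h and 8.98 at 0 h, against 8.08, 8.27 and 8.56 in the other LIF libraries. Again the ranges were separate. Tfdp1, which dimerises with E2F transcription factors to bind DNA, was the highest of the group in both lines, with differences of 0.56 in LV21 and 1.14 in V6.5. Rbl2, a pocket protein that represses E2F targets, was the lowest of the group, with differences of 0.25 in LV21 and -0.04 in V6.5.

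Among the 9 chromatin and transcription genes, 8 were above 0 in LV21 and 9 in V6.5. Ash2l, a core subunit of histone methyltransferase complexes, had log2 CPM values of 9.21 at P13 and 8.51 at P7 in LV21, against 7.97, 8.41 and 8.61 in the other LV libraries. The P7 library of LV21 lay inside that range and the P13 library above it. In V6.5 Ash2l was 9.61 at 24 h and 9.26 at 0 h, against 8.55, 8.78 and 9.44 in the other LIF libraries, so the groups overlapped. Ctcf, the zinc-finger protein that anchors chromatin loops, lay above every other line in both LV21 and V6.5, but by narrow margins. It was 8.274 at P13 and 8.142 at P7 in LV21, against a highest value of 8.138 in the other LV libraries. In V6.5 it was 8.63 at 24 h and 8.45 at 0 h, against a highest value of 8.41 in the other LIF libraries.

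Hmgb2 (chr8:57511843-57515999), a DNA-bending chromatin protein, had the largest difference of all members in both lines, 0.75 in LV21 and 2.82 in V6.5. Its log2 CPM values were 6.64 at P13 and 6.46 at P7 in LV21, against 5.50, 5.84 and 6.01 in the other LV libraries. In V6.5 they were 6.41 at 24 h and 6.501 at 0 h, against 3.24, 3.64 and 4.03 in the F121 and Dusp9+/- libraries. The 4 CM libraries, also of castaneus crosses, lay between 5.85 and 6.19, so the F121 and Dusp9+/- libraries were the low ones for this gene. Against the XY iPSC lines at P7, Hmgb2 in V6.5 differed by 0.58 at 24 h and 0.68 at 0 h. Hmgb2, Rpl13 and Vdac3 are uncertain, because short reads of such genes can be shared with near-identical processed pseudogenes.

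Nfix, a transcription factor of the nuclear factor I family, was the member with the lowest difference in LV21, at -0.05. Its log2 CPM values were 3.73 at P13 and 3.01 at P7 in LV21, against 1.84, 3.34 and 4.79 in the other LV libraries. Both LV21 values lay within this wide range. In V6.5 Nfix was 2.52 at 24 h and 3.89 at 0 h, against 2.05, 2.79 and 4.12 in the other LIF libraries.

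The 9 signalling genes were all above 0 in LV21, but only 5 of them in V6.5. Eif4ebp1, which holds back cap-dependent translation by binding Eif4e, had log2 CPM values of 8.19 at P13 and 8.01 at P7 in LV21, against 6.96, 7.52 and 7.86 in the other LV libraries. In V6.5 it was 7.93 at 24 h and 7.73 at 0 h, against 7.16, 7.57 and 7.79 in the other LIF libraries, with overlap. Ikbkb, a kinase that activates NF-kB, was the highest of the group in V6.5, with a difference of 1.11, and differed by 0.47 in LV21.

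Irs2, Insr and Cmip were lower in both V6.5 libraries than the mean of the other lines at the same time, the only members for which this held. Irs2 (chr8:10984681-11008929), an adaptor of the insulin and IGF receptors, had log2 CPM values of 4.33 at 24 h and 4.73 at 0 h in V6.5, against 4.72, 6.27 and 6.68 in the other LIF libraries. The F121 libraries were low too, at 4.72 (24 h) and 4.89 (0 h), above V6.5 at each time, and the 4 clone libraries lay between 6.16 and 6.68. Insr (chr8:3150922-3279649), the insulin receptor, was 5.46 at 24 h and 5.32 at 0 h in V6.5, against 5.47, 5.67 and 5.99 in the other LIF libraries. Cmip was 6.31 at 24 h and 6.18 at 0 h in V6.5, against 6.28, 6.39 and 6.78. Both values of Insr lay below all others, whereas those of Cmip and Irs2 overlapped with them. Set against the XY iPSC lines at P7, Irs2 in V6.5 differed by -1.61 at 24 h and -1.21 at 0 h, and Insr by -0.26 and -0.40.

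In LV21 no member was lower in both libraries. Irs2 there was 4.90 at P13 and 7.15 at P7, against 4.57, 5.34 and 6.06 in the other LV libraries. It therefore lay above every other LV library at P7 and near their lower end at P13, and differed from the other lines by -0.06 at P13 and 1.43 at P7.

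Calr led the 5 folding and redox genes, all of which were above 0 in both lines. Calr, a calcium-binding chaperone of the endoplasmic reticulum, had log2 CPM values of 9.57 at P13 and 9.51 at P7 in LV21, against 9.03, 9.37 and 9.57 in the other LV libraries, with overlap. In V6.5 it was 9.90 at 24 h and 10.04 at 0 h, against 9.26, 9.53 and 9.81 in the other LIF libraries, with none. Nqo1, a quinone reductase, had the largest difference of the group in both lines, 0.54 in LV21 and 0.85 in V6.5.

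The 7 translation and RNA genes were above 0 in both lines without exception. Aars (chr8:111027778-111055569), the cytosolic alanyl-tRNA synthetase, had log2 CPM values of 10.18 at P13 and 9.66 at P7 in LV21, against 8.94, 9.24 and 9.59 in the other LV libraries. In V6.5 it was 10.20 at 24 h and 10.42 at 0 h, against 8.88, 9.10 and 9.56 in the other LIF libraries. These ranges did not overlap, and Aars was among the 3 largest differences of both lines, 0.69 (1.61-fold) in LV21 and 1.18 (2.27-fold) in V6.5.

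Piezo1 and Lamp1 led the transport and the protein-turnover groups. All 7 transport genes were above 0 in both lines. Of the 4 protein-turnover genes, 4 were above 0 in LV21 but only 2 in V6.5, where Cul4a (-0.05) and Lamp1 (-0.03) were below. Piezo1, a mechanically gated ion channel, had log2 CPM values of 8.43 at P13 and 8.30 at P7 in LV21, against 7.33, 7.74 and 8.07 in the other LV libraries. In V6.5 it was 8.47 at 24 h and 8.06 at 0 h, against 7.43, 7.96 and 8.35 in the other LIF libraries, inside their range at 0 h. Lamp1, a glycoprotein of the lysosomal membrane, was 8.91 at P13 and 8.69 at P7 in LV21, against 8.27, 8.48 and 8.77 in the other LV libraries. In V6.5 Lamp1 was 8.57 at 24 h and 8.99 at 0 h, against 8.72, 8.78 and 9.02 in the other LIF libraries. Lamp1 thus overlapped with the other lines in both sets. In LV21 the lowest members after Nfix were Polb (0.21) and Trappc2l, a subunit of the TRAPP trafficking complex (0.22).

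**Figure D3:**
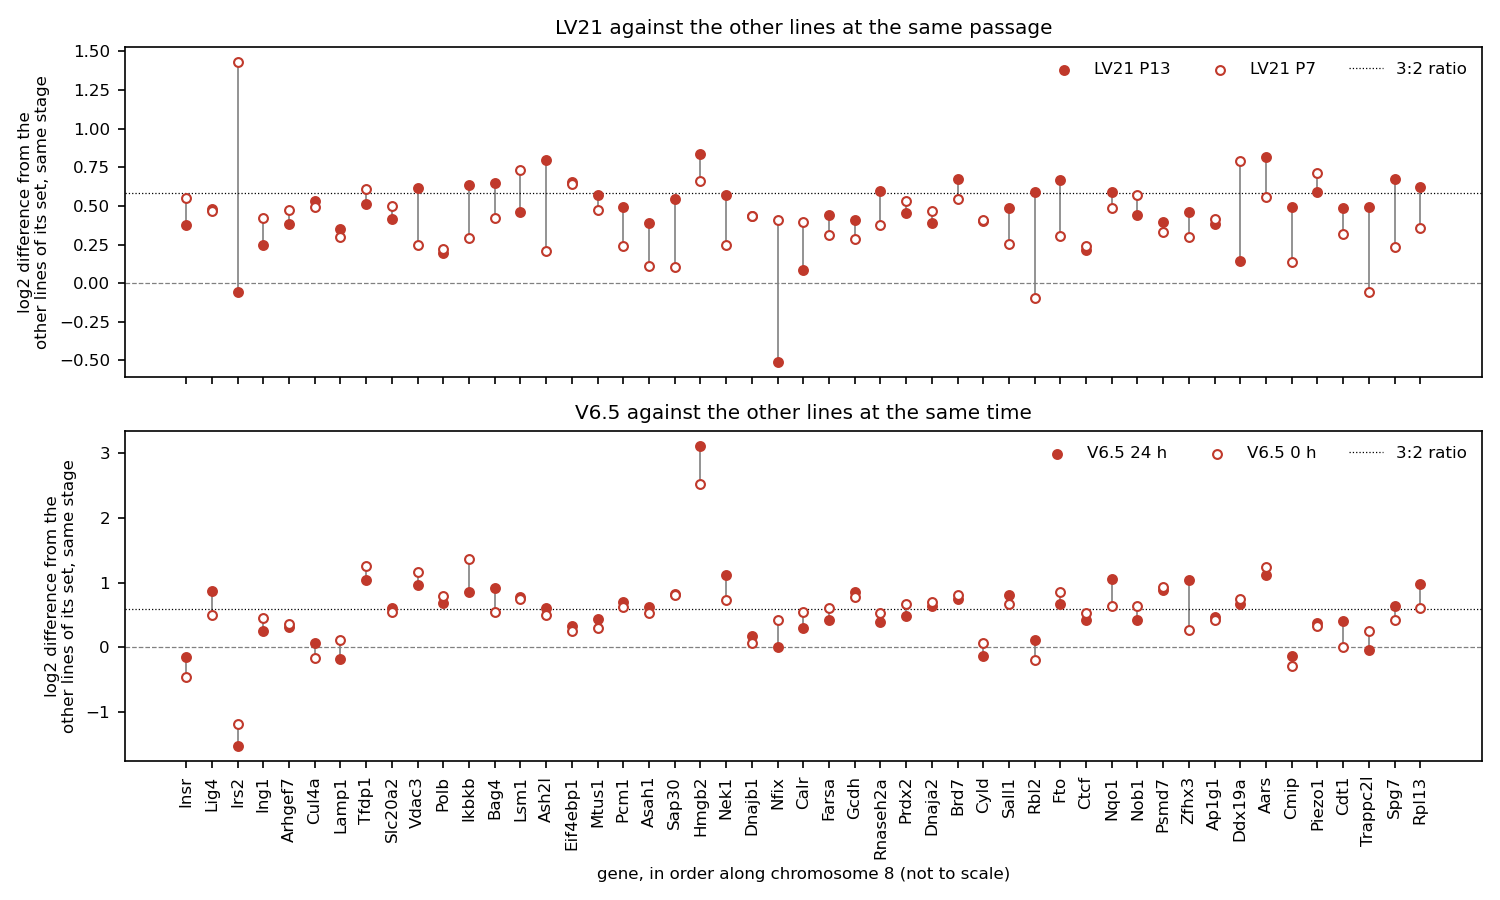
Each gene (horizontal axis, in order along chromosome 8, not to scale) is drawn as its log2 difference from the other lines at the same passage (LV21, upper panel) or time (V6.5, lower panel), with filled points for P13 or 24 h and open points for P7 or 0 h; the dotted line is 0.58, a ratio of 3 to 2. In LV21 47 of 49 genes lie above 0 at each passage, and in V6.5 43 of 49 at each time, with Irs2 lowest (-1.53 at 24 h) and Hmgb2 highest (3.11 at 24 h).

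Promoter sequence was set beside these values for the members with a RefSeq entry of GRCm38.p6, which were 35 of 49. In windows of 300 bases (250 before and 50 after the start), the members held a median of 23.0 CG dinucleotides, as did 377 other chromosome 8 promoters (23.0), while all 8721 promoters of genes at the level held 22.0. The GC box GGGCGG, read on both strands, occurred in 74.3% of the members' windows, against 68.1% of all windows. CCAAT occurred in 31.4%, against 39.6%, and TATAAA in 11.4% (4 promoters), against 6.47%. None of the 3 motifs contains another. The 100 bases before the start of the promoter entry are shown for Hmgb2 and Tfdp1, which are among the 3 highest members of V6.5, and for Cmip and Irs2, which are among the 3 lowest, so that high and low members can be read side by side. For Tfdp1 the entry starts 26 bases inside the annotated gene, so the last 26 bases of its stretch are transcribed in that annotation, whereas the other 3 entries start at the gene's start. CG dinucleotides are in capitals, and the 4 stretches hold 5 (Hmgb2), 17 (Tfdp1), 16 (Cmip) and 12 (Irs2) of them.
Hmgb2 (chr8:57511743-57511842, plus strand): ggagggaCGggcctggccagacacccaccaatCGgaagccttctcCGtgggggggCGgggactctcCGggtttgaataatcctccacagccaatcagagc
Tfdp1 (chr8:13338651-13338750, plus strand): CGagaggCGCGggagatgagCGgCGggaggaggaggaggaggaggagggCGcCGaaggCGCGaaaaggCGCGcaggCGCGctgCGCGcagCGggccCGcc
Cmip (chr8:117256919-117257018, plus strand): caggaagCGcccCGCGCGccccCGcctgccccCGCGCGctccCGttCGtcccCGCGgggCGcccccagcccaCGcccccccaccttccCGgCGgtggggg
Irs2 (chr8:11008930-11009029, minus strand): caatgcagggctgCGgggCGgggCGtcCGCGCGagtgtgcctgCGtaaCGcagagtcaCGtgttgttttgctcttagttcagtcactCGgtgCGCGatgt
These strings describe the windows, and the methylation or activity of the promoters was not measured in the data analysed here.

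Many members work in complexes with, or in the same process as, proteins coded on other chromosomes, which are called partners here. For 20 members, 47 partners off chromosome 8 passed the same level, while 3 listed partners were on chromosome 8 and 1 was below the level. In LV21 the 20 members differed from the other lines by a median of 0.46, with 20 of 20 above 0, and the partners by -0.04, with 18 of 47 above 0. In V6.5 the members' median was 0.62, with 19 of 20 above 0, and the partners' was 0.08, with 31 of 47 above 0. A member lay above the median of its own partners in 20 of 20 cases in LV21 and 17 of 20 in V6.5. The chromosome was chosen for its high values in these libraries, so such counts follow from that choice and nothing is read from them. Psmd7, a subunit of the proteasome lid, differed by 0.36 in LV21, where its 9 partners ran between -0.06 (Psmd14) and 0.31 (Psmd6). In V6.5 it differed by 0.90, and its partners lay between -0.26 (Psmd3) and 0.29 (Psmd13). The deubiquitinating subunit Psmd14, with which Psmd7 forms a dimer, differed by 0.07 in V6.5.

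Tfdp1 and its partner E2f1 lay on opposite sides of 0 in both lines. Their differences in LV21 were 0.56 for Tfdp1 and -0.50 for E2f1, and in V6.5 1.14 and -0.47. Ikbkb differed by 1.11 in V6.5, while Ikbkg, the X-linked regulatory subunit of the same kinase, differed by -0.98. All 6 other libraries of that experiment are from female lines, and the X-linked genes as a whole differed by a median of -0.74 at 24 h and -0.77 at 0 h in V6.5. The partners with the highest values in V6.5 were Hdac1 at 1.15, a deacetylase bound by the complex of Sap30 (0.81), and Rpl3 at 0.83, beside Rpl13 at 0.79. For Eif4ebp1 and its target Eif4e the V6.5 differences were both 0.30.

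**Figure D4:**
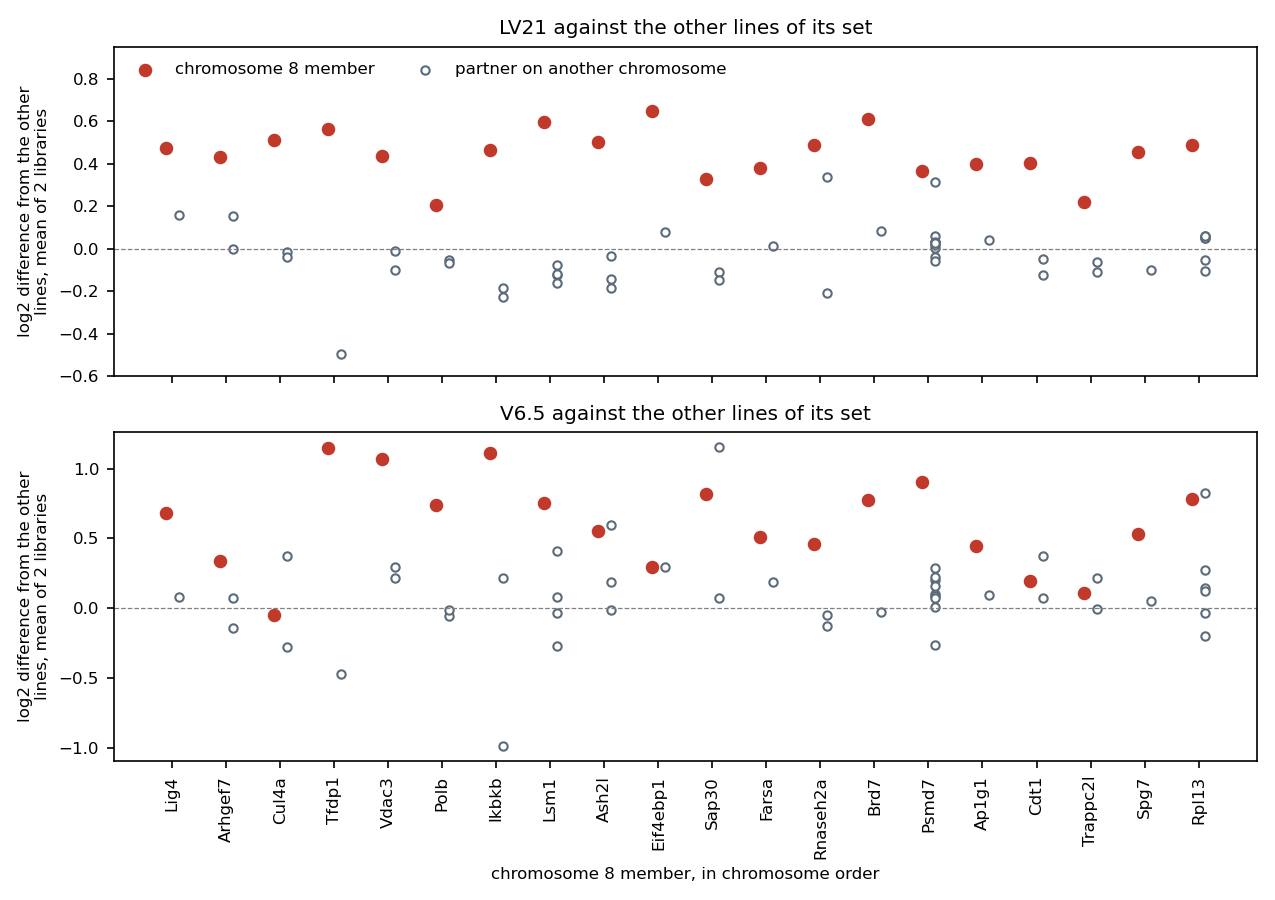
For 20 members (horizontal axis) the log2 difference of LV21 (upper panel) or V6.5 (lower panel) from the other lines, as the mean of the 2 libraries, is drawn for the member (red) and for its partners on other chromosomes (open). In LV21 all 20 members lie above the median of their partners, whose values run between -0.50 and 0.34, and in V6.5 17 of 20 do. These counts are a description, since the chromosome was chosen on these libraries.

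The members' median change between passages was above 0 in all 6 iPSC lines, and it was smallest in LV4, where the quartiles were -0.18 and 0.27. The median change of the 49 members, P13 minus P7, was 0.20 in LV21, 0.09 in LV20, 0.19 in LV22, 0.04 in LV4, 0.14 in LV8 and 0.13 in LV16. Members above 0 numbered 40 in LV21, 31 in LV20, 35 in LV22, 26 in LV4, 31 in LV8 and 32 in LV16. Of the autosomal genes off chromosome 8, between 48.3% (LV16) and 52.6% (LV20) were above 0. The other chromosome 8 genes changed by medians of 0.16 in LV21, 0.20 in LV22 and 0.10 in LV8, where chromosome 8 was the autosome with the highest median change, and by 0.01 to 0.03 in LV20, LV4 and LV16. The autosomal genes off chromosome 8 stayed between -0.01 and 0.03 in all 6 lines. In the LIF experiment the median change of the members, 24 h minus 0 h, was 0.07 in V6.5 and 0.12 in F121. With the clone numbers as labelled, it was 0.05 in Dusp9+/- 1 and 0.06 in Dusp9+/- 2. Autosomal genes off chromosome 8 changed by medians of 0.02 in V6.5, 0.03 in F121, 0.02 in Dusp9+/- 1 and 0.04 in Dusp9+/- 2.

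**Figure D5:**
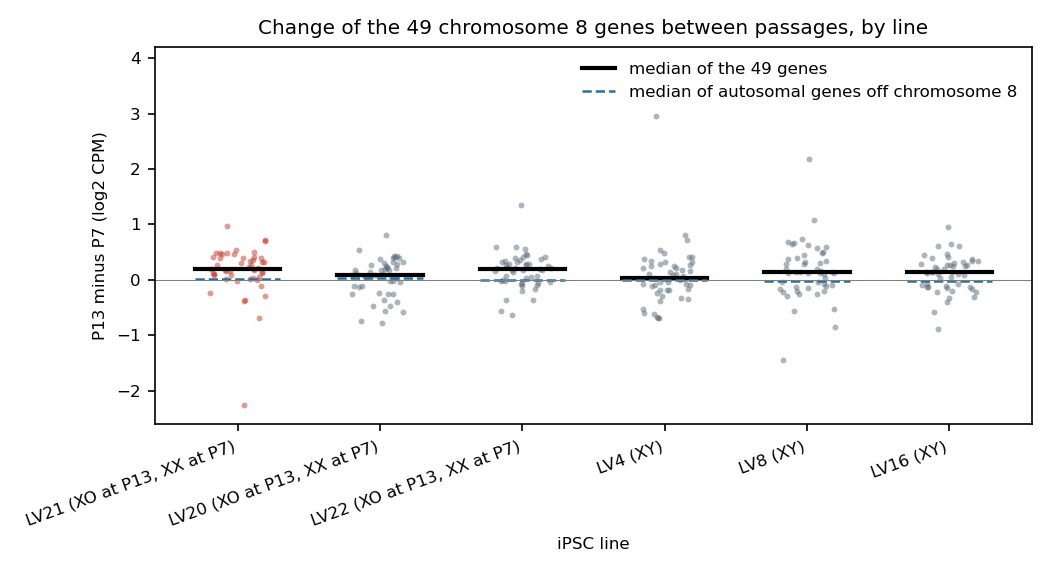
Points are the 49 chromosome 8 genes, as P13 minus P7 in log2 CPM, in each of the 6 iPSC lines; black lines are their medians and blue dashes the medians of autosomal genes off chromosome 8. The member medians are highest in LV21 (0.20) and LV22 (0.19) and lowest in LV4 (0.04), and the dashes stay between -0.01 and 0.03.

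The comparisons of the study were tested with limma over all genes, with the Benjamini-Hochberg adjustment and a threshold of 0.05. Where a group holds LV21 or V6.5, which chose the chromosome, the counts of the fit with that line are given as a description, and the tests come from a fit without the line, a choice made after seeing the data. In the XY iPSC lines at P13 against P7, 5 of 49 members rose and 0 fell, where 13.0% of all genes were called, 7.23% higher and 5.82% lower. The members' median was 0.11, with 29 of 49 above 0, and that of all genes was 0.00. With the line as a block, 12 members rose and 2 fell (15.0% of all genes). Nfix had log2 CPM values of 4.79, 4.32 and 3.30 at P13, against 1.84, 2.15 and 2.35 at P7, in LV4, LV8 and LV16 (log2 change 2.03 ± 0.33 SE, adjusted p = 0.00328). Nfix was higher at P13 in 3 of 3 lines, with no overlap. Nqo1 was 5.50, 5.44 and 5.43 at P13, against 5.02, 4.35 and 4.79 at P7 (0.74 ± 0.18, adjusted p = 0.0179), and the homeodomain factor Zfhx3 was 6.33, 6.25 and 6.25, against 5.79, 5.77 and 5.63 (0.54 ± 0.13, adjusted p = 0.0148). Calr was 9.44, 9.43 and 9.57 at P13, against 9.05, 9.03 and 9.12 at P7 (0.41 ± 0.10, adjusted p = 0.0157). Mtus1, a microtubule-associated protein, rose by 0.56 ± 0.17 (adjusted p = 0.0403). All 5 were higher at P13 in 3 of 3 lines. The summed level of 12 fibroblast markers moved with them, at 553 to 1540 CPM in the XY lines at P13, against 290 to 308 CPM at P7, with all 12 present in each library, and its part in these changes was not tested. Nfix was the 1 call left without LV4 P13 or without LV8 P7, 3 calls were left without LV8 P13 or without LV16 P7, and 4 without LV4 P7. The fit shares its spread with LV21, and without that line 13 members rose and 4 fell (20.2% of all genes).

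In the XX against the XY iPSC lines at P7, without LV21, 4 members were higher and 5 lower (14.9% of all genes, 8.16% higher and 6.72% lower), with a median of 0.06 and 28 of 49 above 0. Eif4ebp1 had log2 CPM values of 7.86 and 7.79 in the XX lines LV20 and LV22, against 7.02, 6.96 and 7.20 in the XY lines LV4, LV8 and LV16 (log2 difference 0.77 ± 0.11 SE, adjusted p = 0.000359). Nqo1 was 5.66 and 5.83 in the XX lines, against 5.02, 4.35 and 4.79 in the XY lines (1.03 ± 0.18, adjusted p = 0.00136). Spg7, a subunit of a mitochondrial inner-membrane protease, was 5.56 and 5.46, against 6.15, 6.24 and 6.00 (-0.62 ± 0.12, adjusted p = 0.00326). In each of these genes the groups did not overlap. Zfhx3 was 6.22 and 6.28 in the XX lines, against 5.79, 5.77 and 5.63 in the XY lines (0.52 ± 0.11, adjusted p = 0.00544). Ash2l was 8.09 and 7.97, against 8.44, 8.61 and 8.39 (-0.45 ± 0.10, adjusted p = 0.0102), and Nfix was 3.39 and 3.27, against 1.84, 2.15 and 2.35 (1.21 ± 0.35, adjusted p = 0.0289). The other members that were lower in the XX lines were Ikbkb (-0.56), the kinase Nek1 of the primary cilium (-0.46) and the RNA demethylase Fto (-0.33). Nqo1, Zfhx3 and Nfix were also called in the XY passage comparison, which shares the XY libraries at P7. Eif4ebp1 and Nqo1 kept their call whichever library was left out, and they were the 2 calls without LV22 P7. There were 6 calls without LV20 P7 or LV4 P7, 5 without LV8 P7 and 7 without LV16 P7. In the fit with LV21, 3 members were higher and 0 lower (4.78% of all genes, 3.05% higher and 1.72% lower), and the median was 0.17.

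In the XO against the XY iPSC lines at P13, without LV21, 0 of 49 members were called by limma (0.0716% of all genes), and 0 had an unadjusted p under 0.05; limma-voom on the recovered reads also called 0. The median was 0.05, with 32 of 49 above 0. Without LV22 P13 as well, the XO library with the high X-linked median, it was -0.01, with 21 of 49 above 0. In the fit with LV21, 0 members were called (0.0286% of all genes), and the median was 0.20, with 49 of 49 above 0.

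In the female lines, P13 (XO) against P7 (XX), without LV21, 4 members rose and 1 fell (13.8% of all genes, 6.94% higher and 6.90% lower). Nob1, a nuclease of ribosome maturation, had log2 CPM values of 6.76 and 6.89 at P13, against 6.32 and 6.31 at P7, in LV20 and LV22 (log2 change 0.51 ± 0.11 SE, adjusted p = 0.0103). Insr was 5.25 and 5.38 at P13, against 5.82 and 6.02 at P7 (-0.60 ± 0.15, adjusted p = 0.0155). Both lines moved the same way in each gene, with no overlap. Tfdp1 rose by 0.39 (adjusted p = 0.041), the peroxidase Prdx2 by 0.39 (adjusted p = 0.0376) and Calr by 0.30 (adjusted p = 0.0473). In the XY lines Insr was 5.10, 5.28 and 5.41 at P13, against 5.70, 5.84 and 5.63 at P7, lower in 3 of 3 lines, and the fall was called when LV21 was left out (-0.46, adjusted p = 0.0154) but not with it. No call of the female lines held in every fit that left out 1 library, with 0 calls without LV20 P7, 1 without LV20 P13 or LV22 P7 and 2 without LV22 P13. Centred on the autosomal genes off chromosome 8, the libraries gave 2 calls, Nob1 and Insr. The summed fibroblast markers were 948 and 1180 CPM at P13, against 331 and 286 CPM at P7, and their part was not tested. In the fit with LV21, 1 member fell, Insr, and 0 rose (9.00% of all genes, 4.32% higher and 4.68% lower), and with the line as a block 6 rose and 1 fell (11.1%).

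The passage change of the female minus that of the male lines, without LV21, gave 0 called members (0.451% of all genes) by limma, with 7 members at an unadjusted p under 0.05, and limma-voom also called 0. Eif4ebp1 was called without LV16 P13 (-0.71, adjusted p = 0.0213), a value named after it was seen. In the fit with LV21, 0 members and 0 genes were called (0.00%).

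The CM lines belong to a set without LV21 or V6.5. In the XX against the XY lines, 4 members were higher and 1 lower (12.0% of all genes, 6.97% higher and 5.00% lower), and the members' median was -0.02, beside -0.01 for all genes. Eif4ebp1 had log2 CPM values of 8.13 and 8.02 in the XX lines CM1 and CM2, against 7.68 and 7.54 in the XY lines CM3 and CM7 (log2 difference 0.46 ± 0.09 SE, adjusted p = 0.00626). This gene was also higher in the XX iPSC lines at P7, which share no library with the CM lines. Sall1, a zinc-finger repressor, was 8.33 and 8.49 in the XX lines, against 8.04 and 7.79 in the XY lines (0.50 ± 0.10, adjusted p = 0.00878), and Lamp1 was 8.53 and 8.61, against 8.21 and 8.19 (0.37 ± 0.07, adjusted p = 0.00918). Cmip was 6.58 and 6.51, against 6.02 and 6.08 (0.49 ± 0.10, adjusted p = 0.0118). Spg7 was 5.34 and 5.46 in the XX lines, against 6.06 and 5.79 in the XY lines (-0.53 ± 0.13, adjusted p = 0.0289), and was lower in the XX iPSC lines too. For none of the 5 genes did the groups overlap. Without CM1 or without CM2, 0 members were called, and without CM3 or without CM7, 14 and 12 were.

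Between the Dusp9+/- clones and F121 most members lay below 0. F121 is 1 library at each time, so its own spread was not measured and the p-values assume that it varies like the clones. At 0 h the members' median difference was -0.18, with 14 of 49 above 0, beside -0.01 for all genes, and 2 members were higher and 4 lower (8.91% of all genes, 4.81% higher and 4.10% lower). Irs2 had log2 CPM values of 6.16 and 6.68 in clones 1 and 2, against 4.89 in F121 (log2 difference 1.53 ± 0.22 SE, adjusted p = 0.0241). Tfdp1 was 6.11 and 6.24 in the clones, against 6.85 in F121 (-0.68 ± 0.11, adjusted p = 0.0265). Ikbkb was 4.24 and 4.22, against 5.03 (-0.80 ± 0.14, adjusted p = 0.0322), and Psmd7 was 7.54 and 7.54, against 8.00 (-0.46 ± 0.10, adjusted p = 0.0421). Nqo1 was 5.76 and 5.80, against 5.05 (0.73 ± 0.13, adjusted p = 0.0297), and Aars was 8.88 and 9.10, against 9.56 (-0.57 ± 0.12, adjusted p = 0.0459). The summed fibroblast markers were 89.6 and 199.7 CPM in the clones at 0 h, against 863 CPM in F121, and their part was not tested. Of all genes called at 0 h, 54.0% were higher, and 43.5% were when libraries were centred on the autosomal genes off chromosome 8. Without clone 1 the call of Aars was lost (adjusted p = 0.0514) and 11 members were called, and without clone 2 there were 7 calls. With the spread taken from the compared libraries alone, Irs2 was the 1 call.

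At 24 h the median difference was -0.22, with 7 of 49 above 0, beside -0.02 for all genes, and 1 member was higher and 1 lower (2.55% of all genes, 1.57% higher and 0.984% lower). Irs2 was 6.46 and 6.39 in clones 1 and 2, against 4.72 in F121 (1.70 ± 0.22, adjusted p = 0.0358), and Ash2l was 8.76 and 8.80, against 9.44 (-0.66 ± 0.11, adjusted p = 0.0497). At each time both clones lay above the F121 library for Irs2. The summed fibroblast markers at 24 h were 185 and 103.5 CPM in the clones, against 269 CPM in F121, and their part was not tested. At 24 h no call remained when either clone library was left out, without the filter on low values or with limma-voom, and Irs2 was the 1 call with either pseudocount.

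In the time comparison, 24 h against 0 h, over the 3 lines without V6.5, 8 members rose and 3 fell (24.3% of all genes, 12.3% higher and 12.0% lower), and with the line as a block 2 rose and 3 fell (12.8%). Asah1, the lysosomal acid ceramidase, had log2 CPM values of 6.33, 6.16 and 6.47 at 24 h, against 6.80, 6.90 and 6.96 at 0 h, in Dusp9+/- 1, Dusp9+/- 2 and F121 (-0.56 ± 0.09 SE, adjusted p = 0.00702). Mtus1 was 5.43, 5.32 and 6.07 at 24 h, against 6.18, 5.95 and 6.56 at 0 h (-0.62 ± 0.10, adjusted p = 0.00843). Hmgb2 was 3.31, 3.24 and 3.35 at 24 h, against 3.95, 3.93 and 4.03 at 0 h (-0.67 ± 0.12, adjusted p = 0.0122). Each of these fell in 3 of 3 lines. Lig4 was 4.75, 4.73 and 4.74 at 24 h, against 4.19, 4.09 and 4.27 at 0 h (0.56 ± 0.11, adjusted p = 0.0142). Nob1 rose by 0.45 (adjusted p = 0.0143) and Ikbkb by 0.65 (adjusted p = 0.0214), each in 3 of 3 lines. The other 5 members that rose were Tfdp1, Ctcf, Farsa, Slc20a2 and Ap1g1. With the line as a block, Ikbkb and these 5 lost their call. With the clone numbers crossed in the block, only Ap1g1 did. Asah1 and Mtus1 kept their call whichever library was left out, and they were the 2 calls when either clone library at 24 h was left out. There were 5 calls without Dusp9+/- 2 at 0 h, 8 without Dusp9+/- 1 at 0 h and 11 when either F121 library was left out. In F121 the summed fibroblast markers were 269 CPM at 24 h, against 863 CPM at 0 h, and in the clones 185 and 103.5 CPM at 24 h, against 89.6 and 199.7 CPM at 0 h, and their part in these changes was not tested. In the fit with V6.5, whose markers were 232 CPM at 24 h, against 919 CPM at 0 h, 11 members rose and 4 fell (32.7% of all genes, 16.8% higher and 15.9% lower), and with the line as a block 8 rose and 3 fell (25.2%).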

How the data were processed

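RNA was read single-end after a stranded mRNA preparation, per the labels' protocols. The authors deposited log2 CPM values with an offset, a unit other than raw counts, for 24 libraries, and tools listed in the submitters' processing notes include the aligner STAR (2.5.3a) and featureCounts, with no order. The values, with a floor of -2.45, are whole steps of 1 read, within 0.01 read. Library and technical repeat of the LIF experiment share 1 column, and whether they were pooled is not given in the sources used here. The 20 chromatin samples were not analysed here. Positions came from RefSeq GRCm38.p6 (15225 symbols matched directly, 362 by synonym). Log2 values were fitted unchanged with limma 3.58.1 in R 4.3.3 (lmFit, eBayes with trend; two-sided, Benjamini-Hochberg over all genes) over genes that averaged 1 CPM or more. The plan had allowed for a count test; limma-voom on recovered reads replaced it. P-values cover the spread between lines or clones. Depth was 8309171 to 14245900 reads. Members, gene lists and partners were chosen with earlier results of these data known. Values are given for the highest-mean gene of each role, for genes at the ends of each line's range or of opposite sign, and for up to 6 called members per comparison. The passages pair by cell line. For the Dusp9+/- clones the deviations of same-numbered libraries correlated at -0.42 (11185 genes), so their numbers may be crossed. Comparisons with LV21 or V6.5 in a group were refitted without that line. Alternatives covered pseudocounts of 1 and 5, filters, centring, the replicate block, and each library left out.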

Additional observations from a re-analysis of the deposited data

How the results depend on the processing

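Centring, a pseudocount of 1, other gene sets and the mean in place of the median changed the 4 deviations of LV21 and V6.5 little. Each change from the main value was at most 1 SD of the median deviations of the other lines' libraries in the same set. A baseline without the same line moved LV21 P7 to 0.30, V6.5 24 h to 0.64 and V6.5 0 h to 0.48, and one of the other lines at the same stage to 0.41, 0.61 and 0.54; that baseline drops both the high line and the libraries of the other stage. Against the XY iPSC lines at P7, V6.5 0 h was 0.56. With the spread from the compared libraries alone, called members numbered 15 for XY P13 against P7, 0 for the female lines, 1 for the Dusp9+/- clones against F121 at 0 h and 9 at 24 h; the cause was not tested. With the replicate block they numbered 14 for the XY and 7 for the female passage comparison, and 5, in place of 11, for time without V6.5; it moved no other count of member calls by more than 1.5 times. Without LV21 at both passages, a choice made after seeing the data, they numbered 17 (XY passage), 9 (XX against XY at P7) and 5 (female passage). In the female passage comparison without LV21, centring gave 2 calls and the spread of the compared libraries alone 9. At 24 h the clones against F121 gave 0 calls without the filter, 1 with either pseudocount and 0 with limma-voom. Leaving out 1 library gave 1 to 7 calls (3 without LV8 P13 or LV16 P7) for the XY passage comparison, 0 to 5 for XX against XY at P7, 0 to 10 (2 without LV21 P13) for the female passage comparison, 0 to 14 (12 without CM7) for the CM lines, 7 to 11 and 0 to 0 for the clones at 0 h and 24 h, and 7 to 14 for time. In the fits without LV21 it gave 2 to 7 calls for XX against XY at P7, 0 to 0 for XO against XY, 0 to 2 for the female passage comparison and 0 to 1 for the difference of the passage changes, and without V6.5 it gave 2 to 11 for time. With the clone numbers crossed in the block, also chosen after seeing the data, the time comparison called 14 members, against 11 with the numbers as labelled and 15 without a block; without V6.5 these were 12, 5 and 11. No named call reversed its sign. The members with the lowest means, and so the fewest reads, were Nfix (3.34) and Trappc2l (3.62).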

Other observations

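Chromosome 8 was not the only autosome with a shift shared by many genes. In F121 the median deviation of chromosome 17 genes was -0.16 at 24 h and -0.19 at 0 h, and that of chromosome 6 genes was 0.18 at 24 h and 0.16 at 0 h. These values are smaller than those of chromosome 8 in V6.5. Chromosome 12 genes above 0 made up 86.6% in Dusp9+/- 1 at 0 h and 87.4% in Dusp9+/- 2 at 24 h, and 32.6% in Dusp9+/- 1 at 24 h and 35.1% in Dusp9+/- 2 at 0 h.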
